A study of Saccharomyces cerevisiae with 54 samples.

Results

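The genes described here were 49 genes for proteins of the cytosolic ribosome of the budding yeast Saccharomyces cerevisiae. They were chosen by name from the 6264 genes of the table and not by a rule on measured values. Earlier results of these data were known at that time. Of these, 19 are present in a single copy and 30 form 15 pairs of paralogs, named with a final A and B. The list held 27 genes of the large subunit and 22 of the small subunit, while 88 further genes with the names of cytosolic ribosomal proteins were used for comparison only. RNA levels were compared between 17 strains from outside the laboratory and the laboratory strain DBY8268, by hybridizing both to spotted arrays of long oligonucleotides. The strains were B1, I14, K1, K9, M22, M8, PR, RM11a, SB, Y1, Y10, Y12, YJM269, YJM308, YJM789, YPS1009 and YPS163, which the labels give by name only. According to the study, RM11a and YJM789 are haploid, and DBY8268 is a diploid of the S288c background. DBY8268 carries ura3 mutations, lacks a functional HO gene and has GAL2. All cells, DBY8268 included, were grown without treatment for a few doublings in YPD, a rich medium with glucose, to early log phase. Of the 17 strains, 14 had 3 arrays and 3 had 4 arrays (M8, Y10 and YPS163), for 54 arrays in all, and the methods call the replicates biological. DBY8268 served as the common reference, and the sources used here do not say whether its RNA on different arrays came from 1 culture.

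Each ribosome is built from a small subunit that reads the messenger RNA and a large subunit that joins amino acids, and each subunit needs nearly all of its proteins in equal numbers. In rapidly growing yeast the ribosomal protein genes make up a large part of all transcription by RNA polymerase II. They are switched on together through the promoter-bound factors Rap1, Fhl1, Ifh1 and Sfp1 when nutrients are plentiful, and switched off together under stress. Most are kept as pairs of nearly identical copies from an ancient duplication of the genome, and many carry introns. RPL30 encodes a protein that also acts on the splicing of its own transcript.

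Every value below is a log2 ratio of a strain over DBY8268, so that 1 unit is a 2-fold difference, and every array had been centred by the authors. The 49 genes had few missing values (3.25%, against 19.1% over all genes), and 18 of them had a value on every array. Replicate arrays resembled each other less over the members than over all genes: the median r between arrays of 1 strain was 0.09 over members and 0.71 over all genes with opposite dyes, and 0.22 and 0.63 with the same dyes. RPL7A stood apart, with a value on 31 arrays (30 of 30 in slide series G3 to G5 and 1 of 24 in G6), while every other member had at least 49. The chromosomes given are those in the systematic names. Copies of a pair are similar in sequence, the sequences of the probes were not used here, and how far each probe also bound the transcript of the other copy was not tested. The haploid strains stood apart in their mating-type genes: the a-specific genes had a median of 6.16 in RM11a and the alpha-specific genes one of 7.10 in YJM789. A pair of arrays of different strains nevertheless stood apart from the other arrays of their strains. RM11a replicate 3 and YJM789 replicate 2 correlated with an r of 0.96 over the members, the highest of all 1431 pairs of arrays (median 0.11), and with one of 0.74 over all genes. Each correlated less with the other arrays of its own strain, with an r of 0.19 to 0.23 over members and 0.45 to 0.51 over all genes for RM11a replicate 3, and of -0.21 to -0.20 and 0.33 to 0.41 for YJM789 replicate 2. Both had the mating-type genes of their label (a-specific 6.11 and alpha-specific 7.18). On both, RPL3 was low (-1.50 and -1.66) and RPL10 (1.15 and 1.04) and RPL8B (1.05 and 1.02) were high. Results that rest on these arrays are given with and without them, and the cause of their likeness was not tested.

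In the fit without slide series, few ribosomal protein genes differed from DBY8268 in any strain. With slide series as a block more did, chiefly in M22, as described below. Averaged over strains, the 49 genes lay between -0.14 (RPL8A, YHL033C) and 0.23 (RPL10, YLR075W), with 28 above 0 and 21 below. The median of the absolute means was 0.08, against 0.18 over 5726 genes with at least 12 strains. Of the 831 strain means of members, 3 were beyond 1 in size (0.361%), against 10.9% over all genes. In the limma fit across all genes at a false discovery rate of 0.01, 8.74% of 97109 tests against DBY8268 passed, while 4 of 831 passed among the members, 3 of them higher and 1 lower. Against the mean of strains, which removes DBY8268 from the comparison, 2.67% of all tests passed and 3 of 831 tests on members, 2 higher and 1 lower. Without RM11a replicate 3 and YJM789 replicate 2, the members passed 3 tests against DBY8268 and 1 against the mean of strains. At an unadjusted p below 0.05 the members passed 63 tests against DBY8268 (7.58%, against 25.6% over all genes) and 50 against the mean of strains (6.02%, against 14.8%). The 88 other cytosolic ribosomal protein genes had a similarly low count, with 10 of 1487 tests passing against DBY8268, all lower.

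**Figure D1:**
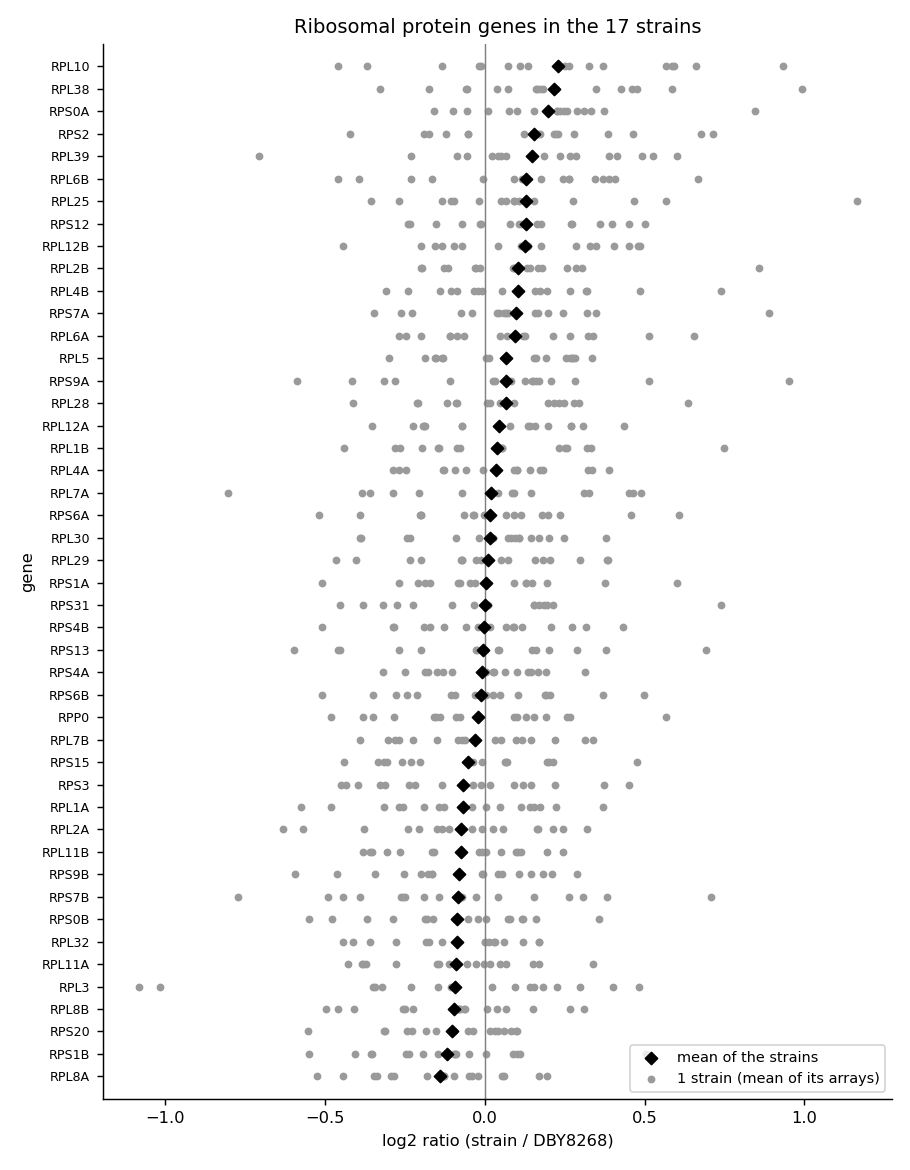
Each row is 1 ribosomal protein gene, ordered by its mean, for 46 of the 49 genes. Grey points are the 17 strains (mean of each strain's arrays, as log2 ratio over DBY8268) and black diamonds are the means over strains. The diamonds run from -0.14 (RPL8A) to 0.23 (RPL10), and the widest rows include RPL3, RPL25 and RPL10.

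The members also varied less from strain to strain than most genes did. The SD of the strain means had a median of 0.26 over the members (range 0.18 to 0.44) and of 0.34 over all genes, and 43 of 49 members lay below the latter value. The spread between arrays of 1 strain was about the same for members and for all genes, with a median residual SD of 0.43 for both. A moderated F test for any difference among strains called 18.4% of 4654 genes with a value in every strain (limma, false discovery rate of 0.01). It called 0 of the 48 members tested, of which 2 had an unadjusted p below 0.05, against 41.3% of genes. This contrast depended on how the arrays were grouped. With the slide series as a term in the same fit, 18.6% of genes and 4 of 48 members passed, namely RPL25, RPS7A, RPL12A and RPS1A, and 28 of 48 members had an unadjusted p below 0.05, against 43.5% of genes. The share that passed was thus lower for members than for all genes in both fits. The share with an unadjusted p below 0.05 was lower for members in the first fit and higher in the second. The median F changed order likewise, from 1.28 for members against 1.68 for all genes to 2.03 against 1.76.

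The slide series moved with the level of all the ribosomal protein genes. The arrays carried slide codes of 4 series, G3 (2 arrays), G4 (3 arrays), G5 (25 arrays) and G6 (24 arrays), and all 18 arrays on which the strain was labeled with Oyster 550 and DBY8268 with Oyster 650 were in G6. On the 30 arrays of G3 to G5, the median of the members ranged from -0.32 to 0.80, and on 21 of these arrays it was above 0. On the 18 dye-reversed arrays of G6 it ranged from -0.74 to 0.29, and on 16 it was below 0. On the 6 other arrays of G6, which belong to M22, RM11a and YJM789, it ranged from -0.41 to 0.20. With the slide series as a term, 2.13% of 5812 genes were significantly lower on G6 arrays than on those of G3 to G5 (limma). Of the members, 30 of 48 were, with a negative coefficient for all 48 and a median coefficient of -0.47. In the 14 strains with arrays in both, the reversed arrays had a lower mean than the others in every strain (median difference -0.51, range -0.79 to -0.22), and in 13 of them each reversed array lay below each other array. In M22, RM11a and YJM789, whose arrays were all in G6, the reversed array differed from the others by 0.09, 0.03 and -0.06. In the other 14 strains the series and the dye changed together and cannot be told apart.

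**Figure D2:**
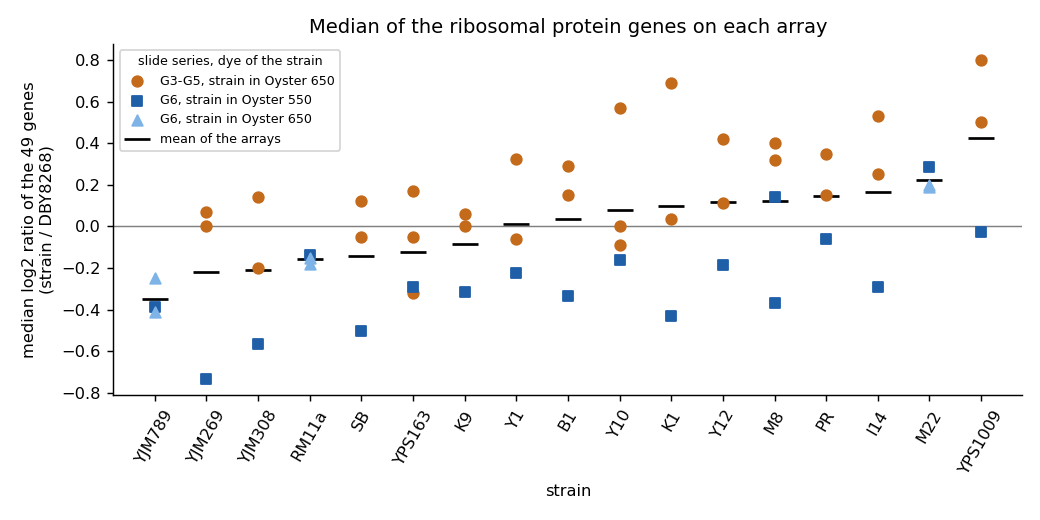
Each point is 1 array, with the median log2 ratio of the 49 genes over DBY8268 on the y axis and the strain on the x axis. Colour and shape give the slide series and the dye of the strain, and black bars are the means of each strain's arrays. Blue squares (G6, reversed dyes) lie at the bottom of most strains, and the strain means run from -0.35 (YJM789) to 0.42 (YPS1009).

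Against that background, the strains could be ordered only in part. The mean over arrays of the member median was highest in YPS1009 (0.80, 0.50 and -0.03 on its 3 arrays) and in M22 (0.20, 0.19 and 0.29), and lowest in YJM789 (-0.41, -0.25 and -0.39), YJM269 (0.07, 0 and -0.74) and YJM308 (-0.20, 0.14 and -0.57). M22 was the single strain with all arrays above 0, YJM789 and RM11a (-0.18, -0.15 and -0.14) were below 0 on all arrays, and the arrays of the other 14 strains lay on both sides of 0. The SD over strains was 0.19, and the pooled SD between arrays of 1 strain was 0.32, which gives a standard error of 0.18 for a mean of 3 arrays. Neighbors in this order were at most 0.20 apart, and 0.13 apart or less except for M22 and YPS1009. That pooled SD includes the shift between slide series, and in M22, RM11a and YJM789, measured on G6 alone, the SD between arrays was 0.05, 0.02 and 0.09. Differences between neighbors were not tested. Within the G6 arrays alone, M22 was the highest of 17 strains (0.23), followed by YPS1009 (-0.03) and PR (-0.06), and YJM269 was the lowest (-0.74). Within the G3 to G5 arrays, YPS1009 was again the highest of 14 strains (0.65) and YPS163 the lowest (-0.07). Over the 14 strains in both sets, the strain values correlated with a Pearson r of 0.60 and a Spearman rho of 0.53.

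Coordination among the members was strong. Over the 17 strain means, the median Pearson r over 1176 pairs of members was 0.54, and 95.5% of these were above 0. The corresponding median over 4654 genes with all strains was 0.04. All of these points share DBY8268 as the reference, and the slide series described above. Deviations of arrays from their strain's mean had a median r of 0.58 between members and of 0.04 between the 777 genes with a value on every array, and in 14 strains these deviations hold the shift between slide series. Taken from the mean of the strain's arrays within G6 or within G3 to G5, over the 41 arrays where such a group held at least 2, they had a median r of 0.34 between members and of 0.04 between 934 genes. Members of the same subunit and of different subunits were correlated alike (median r of 0.54 and 0.53). On the arrays themselves, the medians of large-subunit and small-subunit genes had an r of 0.88, those of single-copy and paralogous genes one of 0.93, and those of the members and the 88 other cytosolic ribosomal protein genes one of 0.95. Within the G6 arrays the median r between members over strains was 0.60, and within the G3 to G5 arrays it was 0.45.

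**Figure D3:**
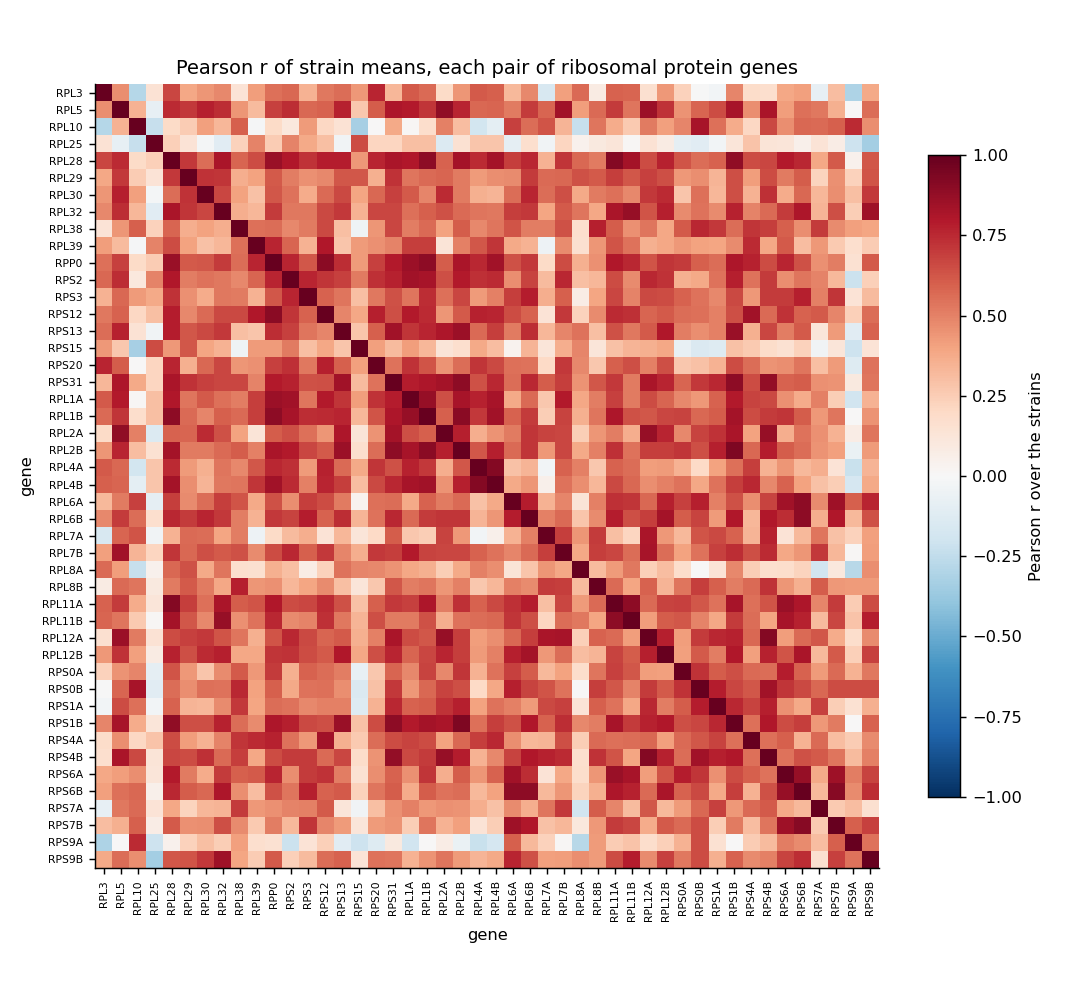
Pearson r over the strains between the strain means (log2 ratio over DBY8268) of pairs of genes, for 46 of the 49 genes, from -1 (blue) to 1 (red). Most cells are red (95.5% above 0 over all 49 genes), and the rows of RPL25, RPS9A and RPS15 are among the palest.

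A few members took less part in this. The median r with the other members was 0.13 for RPL25 (YOL127W), 0.20 for RPS9A (YPL081W) and 0.31 for RPS15 (YOL040C), and at the other end it was 0.71 for RPL28 (YGL103W) and 0.67 for RPP0 (YLR340W). RPL28 encodes the protein whose alteration makes yeast resistant to cycloheximide, and RPP0 encodes the base of the stalk that binds elongation factors. For RPS9A the highest value came from a single array of Y1, the one with the widest spread among members: RPS9A had 3.10, -0.06 and -0.18 on the 3 arrays of Y1. That array is in series G4, gave a value for only 32 of 49 members, and had an SD over members of 1.07 against a median of 0.24 over all arrays. Without the 5 arrays of G3 and G4, the median r with the other members was 0.28 for RPS9A, 0.20 for RPL25 and 0.30 for RPS15, and the median over all pairs of members was 0.61.

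The genes whose pattern over strains was most like the median of the members were ribosomal protein genes as well. Among 4606 genes outside the list with a value in all 17 strains, the highest r was found for RPL23A (0.94), RPL9A (0.93), RPS10B (0.93), RPL37A (0.91) and RPL21B (0.90). Of the 50 genes with the highest r, 30 were among the 85 other cytosolic ribosomal protein genes ranked. The median r of those 85 was 0.71, and that of all ranked genes was -0.16.

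Among the single-copy genes of the large subunit, RPL25 and RPL3 carried the significant differences in the fit without slide series. RPL25 encodes a protein at the exit of the nascent-chain tunnel, where the signal recognition particle binds. It had 1.54, 1.27 and 0.68 in YJM308, against -0.73 to 0.86 (median 0.04) on the 48 other arrays with a value. On 2 of the YJM308 arrays it was above every other array, and the lowest value overlapped with 6 of them, although the members as a whole were not high in YJM308 (median -0.21). RPL25 was 1.16 ± 0.25 (SE, n = 3) above DBY8268 in YJM308 (limma adjusted p = 0.000811) and 1.04 above the mean of strains (limma adjusted p = 0.00653). The latter was lost without YJM308 replicate 1 (adjusted p = 0.138) or replicate 2 (adjusted p = 0.0447), when arrays were scaled to the same spread, and in a fit to the arrays of each strain alone.

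RPL3 (YOR063W), on chromosome XV, encodes a protein that reaches toward the peptidyl transferase center. In RM11a it had -1, -0.75 and -1.50, against -1.66 to 1.08 (median -0.07) on the 49 other arrays with a value. Of these, 47 lay above all RM11a arrays, and low values were found on 1 array of M8 (-1.49) and on YJM789 replicate 2 (-1.66), which resembled the RM11a array with -1.50. The log2 ratio of RPL3 to DBY8268 in RM11a was -1.08 ± 0.26 (SE, n = 3; limma adjusted p = 0.00195), and its difference from the mean of strains was -0.99 (limma adjusted p = 0.00794). The latter was lost without any 1 of the RM11a arrays (adjusted p between 0.0121 and 0.135), with slide series as a block (-0.83, adjusted p = 0.0290) and in the fit to each strain alone. Without the pair of arrays that resembled each other, RPL3 in RM11a was -0.88 ± 0.30 (SE, n = 2) relative to DBY8268 (limma adjusted p = 0.0390) and -0.83 relative to the mean of strains (limma adjusted p = 0.0859), so that neither passed. RPL3 also had the largest SD over strains of all members (0.44), with its highest mean in Y12 (0.98, 0.53 and -0.06).

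The highest means over strains belonged to RPL10 (0.23) and RPL38 (0.22), and RPL39 (0.15) was also among the 5 highest. RPL10 joins the large subunit late in its assembly, and RPL39 lines the exit tunnel. RPL10 was highest in Y1, where its values were 2.40, 0.27 and 0.13, so that the Y1 mean of 0.93 rested on the array of series G4. RPL38 (YLR325C) was highest in YPS1009 (1.19, 1.56 and 0.23) and lowest in YJM269 (-0.10, 0.14 and -1.02). RPL39 (YJL189W) had -2, -0.06 and -0.06 in K9, the first on a G3 array, and 0.73, 1.15 and -0.08 in YPS1009. None of these passed against DBY8268 in the fit without the slide series. With slide series as a block, RPL38 passed against DBY8268 in M22 (0.90), RM11a (1.01) and YPS1009 (0.91). It passed in none of these strains against the mean of strains. M22 and RM11a were measured on G6 alone, so their values in that fit include a series shift estimated in other strains. The remaining single-copy genes of the large subunit (RPL5, RPL28, RPL29, RPL30, RPL32 and RPP0) had means between -0.09 (RPL32) and 0.07 (RPL5).

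No single-copy gene of the small subunit passed either test in the fit without slide series. With slide series as a block, RPS2 in M22 passed both (limma adjusted p = 9.92e-05 against DBY8268 and 0.00145 against the mean of strains). In that fit RPS12 in M22 (0.80) and RPS31 in YPS1009 (0.67) passed against DBY8268. Its M22 values include a series shift estimated in other strains, since M22 was measured on G6 alone. RPS2 (YGL123W), whose protein lies where messenger RNA enters the ribosome, had the highest mean (0.16), with 1.06, 0.43 and 0.65 in M22 and -0.67, -0.77 and 0.17 in YJM789. Those arrays of M22 were above all those of YJM789. RPS20 (YHL015W) had the lowest mean (-0.10) and was lowest in YJM789 (-0.75, -0.52 and -0.39). RPS3, RPS12, RPS13, RPS15 and RPS31 had means between -0.07 (RPS3) and 0.13 (RPS12). RPS31 encodes a ribosomal protein fused to ubiquitin.

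**Figure D4:**
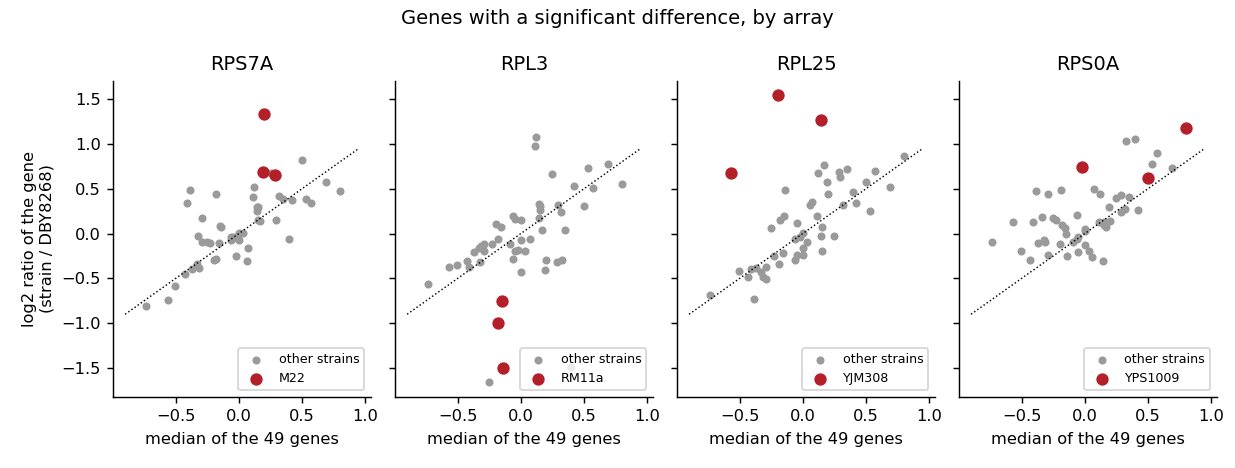
Each panel shows 1 gene on every array with a value: its log2 ratio over DBY8268 against the median of the 49 genes on the same array, with the dotted line marking equal values. Red points are the arrays of the named strain and grey points those of the other strains. RPL25 lay at 1.54, 1.27 and 0.68 in YJM308 while the median was low, and RPL3 at -1, -0.75 and -1.50 in RM11a.

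The other members significant in the fit without slide series were copies of small-subunit pairs. RPS7A (YOR096W) had 1.33, 0.69 and 0.65 in M22, against -0.81 to 0.82 (median 0.01) on the 49 other arrays with a value, of which 47 lay below all M22 arrays. It was 0.89 ± 0.21 (SE, n = 3) above DBY8268 (limma adjusted p = 0.00166) and 0.79 above the mean of strains (limma adjusted p = 0.00945). The latter was lost without any 1 of the M22 arrays (adjusted p from 0.0262 to 0.206), and adjusted p values of 0.0101 to 0.0579 were obtained under 5 other settings. RPS0A (YGR214W), whose protein is needed for the final maturation of the small subunit, had 1.18, 0.62 and 0.74 in YPS1009 and -0.31 to 1.05 on the 51 other arrays. It was 0.85 ± 0.20 (SE, n = 3) above DBY8268 there (limma adjusted p = 0.00223) and 0.65 above the mean of strains, which did not pass (adjusted p = 0.0543). Taking the slide series as a block gave more calls than any other setting tried: 21 of 831 tests on members then passed against DBY8268, where 9.08% of all tests passed, and 13 of these 21 were higher values in M22, among them RPS2 (1.16), RPS7A (1.15) and RPL25 (0.91). All arrays of M22 were in G6, so its values in this fit include a series shift estimated in other strains. In those strains series and dye changed together. Without the series term the M22 means were 0.71 for RPS2 and 0.89 for RPS7A, and RPL25 had 0.44, 0.57 and 0.69. With the block, 6 of 831 passed against the mean of strains, all higher, where 2.74% of all tests did.

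The copies of a pair mostly kept together. For each pair the ratio of copy B was subtracted from that of copy A on the same array, which removes the level that all members share on that array, and the difference was tested in the same way over all 61 pairs of genes whose names end in A and B. Of the 253 strain means of the 15 member pairs, 240 were within 0.5 of 0. The SD of the difference over strains had a median of 0.18 for the member pairs and of 0.23 for the other 46 pairs. Those 46 were pairs of cytosolic ribosomal protein genes as well, except NHP6 and COX5. Values over all 61 pairs therefore do not describe paralogs in general. Among the closest member pairs were RPL11 (SD over strains 0.10) and RPL4 (0.11), and both copies of RPL4 correlated with an r of 0.92 over strains. RPL11 encodes a protein that binds the smallest ribosomal RNA of the large subunit. The median r within pairs was 0.78, against 0.54 between members of different families.

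In the fit without slide series, differences between copies were significant in 1 pair. Against DBY8268, 1.86% of 1023 tests over all pairs passed, and 2 of 253 tests on member pairs did, both in RPS1 (limma, false discovery rate of 0.01). RPS1A (YLR441C, chromosome XII) exceeded RPS1B (YML063W, chromosome XIII) by 0.46, 0.32 and 0.86 in RM11a, and by 0.28, 0.87 and 0.36 in YJM789. On the 51 arrays other than those of RM11a the difference ran from -0.44 to 0.87 with a median of 0.03. All arrays of both haploid strains had the higher value for copy A. So had all arrays of M22 (0.42, 0.21 and 0.17), YPS1009 (0.17, 0.09 and 0.03) and Y1 (0.11, 0.01 and 0.08). M22 was, like both haploid strains, measured on G6 alone. With slide series as a block, RPS1 still passed against DBY8268 in both haploid strains. For them that fit uses a series shift estimated in other strains. Outside RM11a, 43 of 51 arrays lay below every array of RM11a. Outside YJM789, 41 of 51 lay below every array of YJM789. The mean difference was 0.55 ± 0.13 (SE, n = 3) in RM11a (limma adjusted p = 0.00174) and 0.50 ± 0.13 (SE, n = 3) in YJM789 (limma adjusted p = 0.00636). In RM11a copy A had 0.14, -0.15 and 0.59 and copy B -0.32, -0.47 and -0.27. In YJM789 copy A had -0.13, 0.17 and -0.18 and copy B -0.41, -0.70 and -0.54. The widest values, 0.86 and 0.87, were those of the arrays that resembled each other. Without both, the difference was 0.39 in RM11a (limma adjusted p = 0.0921) and 0.32 in YJM789 (limma adjusted p = 0.126), and neither passed. The call in RM11a was also lost without its replicate 1 (adjusted p = 0.0121), and that in YJM789 without its replicate 3 (adjusted p = 0.0114) and once every array was given an equal spread (adjusted p = 0.0491). Both were lost in the fit to each strain alone.

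Against the mean of strains, 0.293% of 1023 tests passed and 0 of 253 on member pairs (limma). Of the tests on member pairs, 14 had an unadjusted p below 0.05 (5.53%, against 7.72% over all pairs). The lowest adjusted p of these was 0.0395, for RPS1 in RM11a. A moderated F test among strains called 0% of 56 pairs. With slide series as a term it called 3.57% of 56 pairs and 0 of 14 member pairs (limma). Of the 14 member pairs 3 had an unadjusted p below 0.05, against 23.2% of all 56 pairs. RPS1 had the smallest adjusted p of these 14 (0.0334).

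Pairs with the largest mean difference over strains were RPS0 (0.28), RPS7 (0.24), RPL2 (-0.19) and RPS9 (0.17). RPS0 showed the steadiest offset: copy A was the higher one on 48 of 54 arrays and in 16 of 17 strains, with a strain mean from -0.17 (RM11a) to 0.54 (YJM789). In RM11a the differences were 0.49, 0.32 and -1.33 and in YJM789 0.81, -0.49 and 1.31, and the negative value in each was on the array that resembled the other. Without those arrays the mean was 0.41 in RM11a, and in YJM789 it was 1.06 ± 0.22 (SE, n = 2), which passed against DBY8268 (limma adjusted p = 0.00116). In RPL2 copy B (YIL018W) was the higher one on 42 of 52 arrays and copy A was higher in 1 of 17 strains, K9 (0.24, 0.25 and -0.11). As ratios over DBY8268, these offsets compare each strain with DBY8268 and do not say which copy was more abundant in a cell.

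RPS7, RPL7, RPS9 and RPL8 had the largest SD of the difference over strains (0.31, 0.30, 0.27 and 0.26). RPS7A exceeded RPS7B (YNL096C) by 1.14, 0.26 and 1.65 in YJM789 and by 1.31, 0.78 and 0.46 in M22, while on the other arrays the difference had a median of 0.13. In YJM789 copy B was low (-0.80, -0.35 and -1.17), and in M22 copy A was high with copy B near 0 (0.02, -0.09 and 0.19). Neither passed against DBY8268 (limma adjusted p = 0.0222 and 0.103), and the r between these copies was the lowest of the 15 pairs (0.26). In RPS9, whose protein acts on the accuracy of decoding, copy A exceeded copy B by 0.72, 0.33 and 0.99 in RM11a (limma adjusted p = 0.0185) and by 0.29, 0.40 and 0.95 in YJM789 (limma adjusted p = 0.0741), with means of 0.53 and 0.62 without the arrays that resembled each other. The mean of 0.66 in Y1 came from the G4 array, with differences of 1.96, 0.03 and 0. Large strain means in the other variable pairs likewise rested on 1 array: RPL7 had -1.54 and -0.07 in SB, where the third array lacked RPL7A, RPL8 had 1.76, -0.06 and -0.29 in K9 (-0.18 without the first), and RPL2 had -1.46, -0.12 and -0.04 in SB. In M22, by contrast, RPL8A was below RPL8B on each array (-0.36, -0.29 and -0.69), which did not pass the test. Without the 5 arrays of G3 and G4 the SD over strains was 0.34 for RPS7, 0.26 for RPL7, 0.23 for RPS9 and 0.22 for RPL8.

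**Figure D5:**
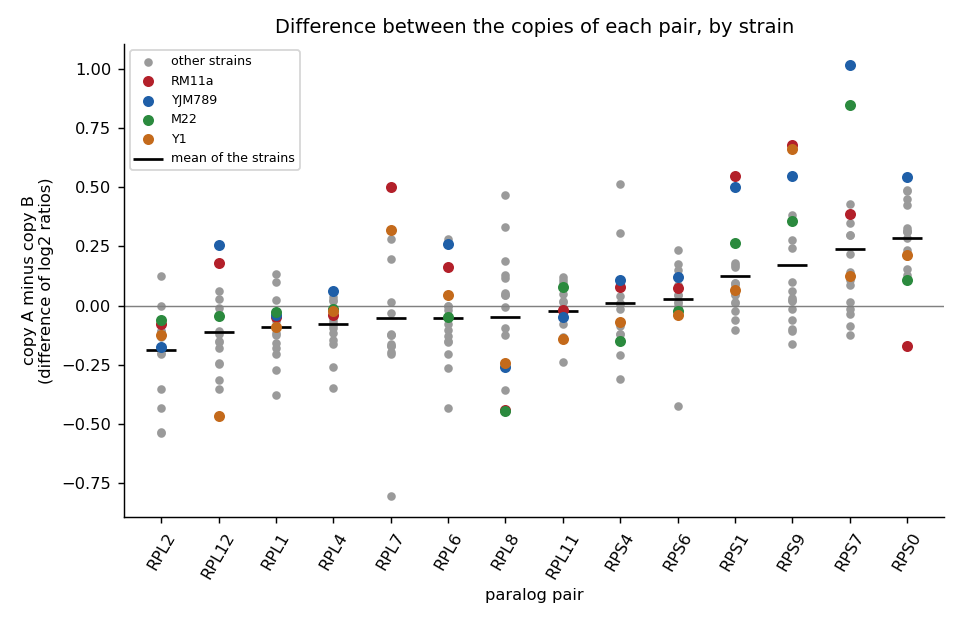
For 14 of the 15 paralog pairs, points show the strain means of the difference between copy A and copy B (log2 ratios over DBY8268), with 4 strains in colour and the mean over strains as a black bar. RPS7 reached 1.02 in YJM789 and 0.85 in M22. RPS1 reached 0.55 in RM11a and 0.50 in YJM789, the 2 significant differences with all arrays in the fit without slide series.

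The chromosomes that stand apart in single strains gave a further comparison of copies. In YPS1009 the 505 genes measured on chromosome XII had a median of 0.38 above the mean of strains, and genes on the other chromosomes one of -0.10. The 8 members on chromosome XII (RPL10, RPL38, RPP0, RPS31, RPL6B, RPL8B, RPS0B and RPS1A) had a median of 0.56 above the mean of strains in YPS1009 and the other 41 members one of 0.36, a smaller gap than that over all genes. All 8 lay above the median of the other members, by 0.002 to 0.42. In the 4 pairs with 1 copy on chromosome XII, that copy did not stand out from its partner in YPS1009: its difference from the partner, relative to the mean of strains, was 0.10 for RPL6B, 0.05 for RPL8B, -0.03 for RPS1A and -0.21 for RPS0B. For RPS0B that difference was lower than in all but 1 of the 16 other strains. In K9 genes on chromosome IX had a median of 0.40 above the mean of strains, and RPL2B, the 1 member there, was lower relative to RPL2A than in each of the 16 other strains (-0.13, against a mean of 0.19). No member lies on chromosome III or XI, which stood apart in K1 and YJM308. None of these copy differences passed the test in YPS1009 or K9.

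Other genes of the translation machinery were compared through lists chosen by function. Of the 13 regulators of ribosomal protein genes, 3 had a significant difference from DBY8268 in 1 strain each. That was 1.39% of 216 tests, against 8.74% over all genes, and 2780 of all 6033 genes tested passed in at least 1 strain. HMO1, which binds the promoters of ribosomal protein genes, was lower in YJM789 (-1.47). The activator IFH1 was lower in YJM308 (-1.27), and the activator SFP1 was higher in Y1 (0.98). SFP1 had the highest mean of this list (0.47) and RAP1 the lowest (-0.36), and RAP1 was below 0 in every strain (-0.65 to -0.12) without passing in any. The strain medians of the regulators had an r of 0.04 with those of the members. Of 9 genes for elongation factors, HYP2, which encodes the factor that carries hypusine, was higher in 4 strains (mean 0.77). TEF4 was lower in 2 (mean -0.10), and 4% of the 150 tests on this list passed. The strain medians of this list had an r of 0.81 with those of the members. Among 25 genes of ribosome biogenesis, 8 of 425 tests passed, 3 higher and 5 lower, with NSR1 the highest by mean (0.39) and NOP4 the lowest (-0.49). Their strain medians had an r of 0.65 with those of the members, and their array deviations one of 0.17. Among 17 stress genes 22 of 268 tests passed (8.21%, close to the 8.74% over all genes), 17 higher and 5 lower, with HSP26 the highest by mean (1.13) and HSP104 the lowest (-0.56). Their strain medians had an r of -0.63 with those of the members. The stress genes were highest in YJM789 (stress genes 2.37, members -0.35) and lowest in M22 (stress genes -0.79, members 0.23). The members were highest in YPS1009 (0.425), where the stress genes had -0.115. The genes for mitochondrial ribosomal proteins were another matter: 244 of 1134 tests passed as higher than DBY8268 and 1 as lower, with a median of 0.60 over genes, against 0.02 for the members. MRP20 was the highest by mean (1.04) and MRPL36 the lowest (-0.21). These correlations are over 17 strains that share the reference, and no test was applied to them.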

How the data were processed

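Hot-phenol RNA of each strain and of DBY8268 was labeled with cyanine dyes and hybridized to arrays of long oligonucleotides designed against the S288c genome. The values deposited, 1 for each gene on each array, were log2 ratios (strain over DBY8268). Per the study's methods, the authors kept unflagged spots that passed a pixel correlation filter and mean-centered the ratios by region of the slide, so a shift of all transcripts together cannot be seen, and weak spots could be missing. Arrays with opposite dyes correlated positively (median r over genes 0.71, 38 pairs), so the ratios had been turned to 1 direction. Values per array numbered 3393 to 5897 (median 5305). Spot intensities were not used here, and the number of arrays limits the precision (median standard error of a mean of 3 arrays 0.25 for members).

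Gene names came from a table of genes of assembly R64 (5832 of 6264 matched, all 49 members included). One limma fit (version 3.58.1, R 4.3.3; lmFit and eBayes) had a coefficient per strain over 54 arrays. Each ratio was tested against 0 and against the mean of the strain coefficients, with Benjamini-Hochberg adjustment within each strain over all genes and a false discovery rate of 0.01. Differences between copies A and B were tested likewise over all 61 such pairs. The F test among strains, also with slide series as a term, was chosen after seeing the data. The tests were checked on simulated data. Single values of 3 members are not reported here, though all 49 entered the counts and medians. The members and the gene lists were chosen with earlier results of these data known. Named were the 5 members with the highest and the lowest means and the 5 with the largest SD over strains, every member or pair that passed, the members on chromosomes XII (YPS1009) and IX (K9), the 4 pairs with the largest mean and the 4 with the largest SD of the difference, the 5 other genes most like the member median, and the ends of each list. RPS15, RPL28, RPP0, RPL11 and RPL4 were named after their values were seen. Members and pairs that passed only with slide series as a block were named in part. Of 408 pairs of same-numbered arrays of different strains, 183 had deviations that correlated above 0.1 (median r 0.06). In most strains replicate 3 was a dye-reversed array of G6, so replicate number overlapped with slide series and dye.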

Additional observations from a re-analysis of the deposited data

Results flagged for a closer look

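In the 3 strains with 4 arrays, Dixon's test for an outlying array was applied to the member median and to the named members and pairs, 46 groups of values in all. It marked 3, where chance marks about 1 in 20. RPS0A in Y10 had 0.90 on replicate 2 and -0.09, 0.03 and 0.06 on the others, and the median of the members was also highest on that array (0.57). The difference between RPS9A and RPS9B in Y10 was 0.43 on replicate 1, an array with values for 26 of the 49 members, and -0.02, -0.03 and 0.01 on the others. RPS9A in YPS163 had 0.85 on replicate 1 and -0.05, 0.03 and 0.00 on the others. Both of the latter arrays are in slide series G4, and the part of the series in these values was not tested.

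For 3 genes the effect in 1 strain differed significantly from the mean of strains in the fit without slide series. RPS7A in M22 lay 0.79 above it, RPL25 in YJM308 lay 1.04 above it, and RPL3 in RM11a had a difference of -0.99, which was -0.83 and did not pass without RM11a replicate 3 and YJM789 replicate 2. Each of these was lost when at least 2 of the 3 arrays of the strain were left out in turn.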

How the results depend on the processing

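All counts are at a false discovery rate of 0.01 in limma fits unless another is named. Of 831 tests on members against DBY8268, 4 passed (8489 of 97109 over all genes), and 16 passed at a rate of 0.05 (14091 of 97109). With only the 18 members present on all arrays 1 passed (1530 of 13209 over complete genes). Slide series as a block gave 21 (8806 of 96930), and dye orientation as a covariate gave 10 (8959 of 96930). A separate fit per strain gave 0 (2580 of 90979), and series and dye together gave 9 (7911 of 96930). Without the 5 arrays of G3 and G4, 8 passed (9496 of 96686). Against the mean of strains 3 passed (2588 of 97109 over all genes), and 0 with only complete genes (323 of 13209). Slide series as a block gave 6 (2659 of 96930), and a separate fit per strain gave 0 (368 of 90979). Of 253 tests on member pairs against DBY8268, 2 passed (19 of 1023 over all pairs), and 6 at a rate of 0.05 (39 of 1023). Slide series as a block gave 4 (28 of 1023), and a separate fit per strain gave 0 (6 of 993). Without the G3 and G4 arrays 5 passed (32 of 1023). Against the mean of strains 0 member pairs passed (3 of 1023 over all pairs), and 1 at a rate of 0.05 (12 of 1023). Slide series as a block gave 2 (13 of 1023), and leaving out the G3 and G4 arrays gave 1 (13 of 1023). Without RM11a replicate 3 and YJM789 replicate 2, which resemble each other, 3 members and 1 pair (RPS0 in YJM789) passed against DBY8268, and 1 member and 0 pairs against the mean of strains. This setting and those with series and dye together and without the G3 and G4 arrays were chosen after seeing the data. Leaving out 1 array at a time gave 3 to 6 members and 1 to 4 pairs against DBY8268, and 1 to 3 members and 0 to 2 pairs against the mean of strains. Against the mean of strains, the member count was 1 without RM11a replicate 2, RM11a replicate 3 or YJM308 replicate 1. The pair count against DBY8268 was 4 without SB replicate 2 and 1 without RM11a replicate 1, RM11a replicate 3 or YJM789 replicate 3, and against the mean of strains it was 2 without SB replicate 2 and 1 without K9 replicate 2. With the replicate block, the counts were 6 and 3 for members and 2 and 0 for pairs. Replicate numbers overlapped with slide series and dye, since replicate 3 was a dye-reversed G6 array in most strains. The cause of the changes in these counts was not tested.

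The SD over strains of the member median was 0.19 and stayed between 0.17 and 0.24 under every alternative run, and the median r between members was 0.54 and stayed between 0.45 and 0.64. None of the 3 member calls and 2 pair calls followed through every alternative reversed its direction. The mean difference of RPL8 in K9 went from 0.47 to -0.18 without replicate 1, and that of RPS0 in RM11a from -0.17 to 0.41 without replicate 3. With 3 arrays a strain mean had a standard error near 0.25, so differences of that size were not detectable, and separate fits per strain made 0 calls in 830 tests on members against 2580 in 90979 over all genes (DBY8268).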
